A study of Mus musculus with 6 samples.

Results

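The genes studied here encode transcription factors of the ETS, Ikaros and Runx families, and they were chosen by name: Spib, Spi1, Ets1, Elf1 and Fli1 (ETS), Ikzf1, Ikzf2 and Ikzf3 (Ikaros), and Runx1 and Runx3 (Runx). All 10 were found among the 21864 protein-coding genes of the mouse annotation used. The data are Mint-ChIP peak lists, in which sites of a histone mark were mapped from few cells by barcoding nuclease-cut chromatin before the immunoprecipitation. The marks were H3K4me1, which is typical of enhancers, and H3K4me3, which is typical of active promoters, with 3 libraries (replicates 1 to 3) for each. Every library came from 50000 sorted germinal center (GC) cells of spleens taken 8 days after wild-type (WT) mice were given sheep red blood cells, an antigen that induces GCs. The age of the mice was not given for these libraries, and the set holds no mutant or unimmunized group. Elsewhere the study uses WT for Cγ1-cre carriers, and whether these mice carried the Cre was not stated. The labels call the cells centrocytes and the study's methods call them GC B cells. An H3K27ac antibody is named in the labels' protocol, but titles and antibody labels give the 2 marks above, and the titles were followed.

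ETS factors bind DNA motifs built on a GGAA core. PU.1 (Spi1) and Spi-B (Spib) are closely related ETS factors that act together in B cells, Ets1 is known to restrain plasma cell differentiation, and Elf1 and Fli1 are expressed widely in blood cells. The Ikaros family consists of zinc finger factors: Ikaros (Ikzf1) and Aiolos (Ikzf3) are central to B cell development, whereas Helios (Ikzf2) is best known from T cells. Runx factors bind DNA together with the shared partner CBFβ, and Runx1 is transcribed from a distal and a proximal promoter.

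For each gene, peaks were sorted into 3 exclusive classes. A promoter peak came within 5 kb of a transcription start site (TSS) of the gene's protein-coding transcripts, a gene body peak lay in the rest of the gene, and an outlying peak lay outside the gene and up to 50 kb from a TSS. The locus was the gene with 50 kb on either side, and the share of it covered by peaks was computed in each library. This share counts every peak of the locus. It includes peaks past the gene's end and over 50 kb from a TSS, which fall in no class. The H3K4me1 lists held 24136, 13923 and 11922 peaks and the H3K4me3 lists 46707, 41936 and 42862. Of these, the 10 genes held 151, 89 and 67 H3K4me1 peaks and 129, 121 and 125 H3K4me3 peaks. Total reads were not used here. The summit of the median H3K4me1 peak held 6 fragments in each library, as worked out from its fold enrichment and p-value, so an absent peak means only that none was called at this depth. The B cell identity of the sample was checked with 10 GC B cell marker genes, all of which had an H3K4me3 promoter peak in 3 of 3 libraries. Of 8 T cell markers, 2 had one in 3 of 3 libraries (Cd3d and Foxp3), and Cd3e, Cd4, Cd8a, Cd28 and Trat1 had none in any library. The mean share of the locus under H3K4me3 peaks was 14.7% to 17.2% for the GC B cell markers and 3.67% to 4.0% for the T cell markers, against a mean of 4.86% over all genes. It was 5.6% to 6.33% for myeloid, 6.84% to 9.04% for erythroid or megakaryocyte and 10.4% to 12.2% for plasma cell markers. Promoter peaks in 3 of 3 libraries were also called at 3 of 6 myeloid, 2 of 5 erythroid or megakaryocyte and 4 of 4 plasma cell markers.

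The start sites differ in base composition, and the sequences behind the clearest contrasts are shown first. Each line gives the 250 bases upstream of a TSS in GRCm38, 5′ to 3′ in the direction of transcription, with CpG dinucleotides in capitals. Elf1 and Runx1 each have a CpG-rich and a CpG-poor start, and Ikzf1 and Ikzf2 are paralogs that both start in CpG-rich sequence. Runx3 also has a CpG-rich and a CpG-poor start, which are not shown.
Elf1 upstream start, chr14:79480944-79481193, plus strand: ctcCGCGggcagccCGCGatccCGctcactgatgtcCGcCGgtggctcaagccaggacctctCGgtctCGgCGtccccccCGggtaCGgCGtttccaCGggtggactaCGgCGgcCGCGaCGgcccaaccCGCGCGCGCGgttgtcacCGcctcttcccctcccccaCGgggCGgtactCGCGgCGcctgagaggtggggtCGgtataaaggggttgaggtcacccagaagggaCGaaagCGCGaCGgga
Elf1 downstream start, chr14:79515424-79515673, plus strand: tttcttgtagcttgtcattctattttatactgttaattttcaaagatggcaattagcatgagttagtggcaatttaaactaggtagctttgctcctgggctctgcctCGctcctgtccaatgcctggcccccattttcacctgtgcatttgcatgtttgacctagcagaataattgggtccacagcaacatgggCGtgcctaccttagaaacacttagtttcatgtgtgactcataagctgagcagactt
Runx1 distal start, chr16:92826150-92826399, minus strand: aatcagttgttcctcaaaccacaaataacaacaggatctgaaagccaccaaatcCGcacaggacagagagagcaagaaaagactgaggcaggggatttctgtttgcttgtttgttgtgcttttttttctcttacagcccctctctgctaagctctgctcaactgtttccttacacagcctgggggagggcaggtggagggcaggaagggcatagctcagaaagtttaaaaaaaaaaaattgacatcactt
Runx1 proximal start, chr16:92697329-92697578, minus strand: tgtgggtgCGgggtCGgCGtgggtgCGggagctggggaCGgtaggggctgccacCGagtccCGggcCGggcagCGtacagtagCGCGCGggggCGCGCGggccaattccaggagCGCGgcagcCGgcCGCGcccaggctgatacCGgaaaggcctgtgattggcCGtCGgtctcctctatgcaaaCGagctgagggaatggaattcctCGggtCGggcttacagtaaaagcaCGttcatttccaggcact
Ikzf1 start, chr11:11685675-11685924, plus strand: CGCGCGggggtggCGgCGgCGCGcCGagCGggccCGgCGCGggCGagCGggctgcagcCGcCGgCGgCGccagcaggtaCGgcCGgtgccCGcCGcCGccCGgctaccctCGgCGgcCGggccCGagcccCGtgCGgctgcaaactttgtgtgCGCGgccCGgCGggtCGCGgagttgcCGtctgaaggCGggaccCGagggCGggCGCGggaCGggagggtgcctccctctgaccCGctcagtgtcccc
Ikzf2 upstream start, chr1:69687246-69687495, minus strand: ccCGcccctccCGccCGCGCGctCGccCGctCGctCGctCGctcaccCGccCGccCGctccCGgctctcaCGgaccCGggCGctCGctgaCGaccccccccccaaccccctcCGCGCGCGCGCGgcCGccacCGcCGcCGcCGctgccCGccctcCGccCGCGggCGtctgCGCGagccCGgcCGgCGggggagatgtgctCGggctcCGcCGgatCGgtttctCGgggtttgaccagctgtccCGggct

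In these windows Elf1 had 35 CpG upstream and 2 downstream, Runx1 had 1 at the distal and 27 at the proximal start, Ikzf1 had 44 and Ikzf2 had 46. The marks at these starts are described with each gene below.

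H3K4me3 was present near the start sites of nearly all of the genes. In 3 of 3 libraries, 9 of 10 genes had an H3K4me3 promoter peak, against 56.1% of all protein-coding genes, and Ikzf2 was the exception. Several of these peaks were wide: 5 of 10 (Spib, Elf1, Fli1, Ikzf1 and Ikzf3) had a promoter peak of at least 5 kb in 3 of 3 libraries, which 1.25% of all genes had. Wide promoter peaks were not particular to these genes, since 7 of the 10 GC B cell marker genes above also had one of at least 5 kb in 3 of 3 libraries. The median of the widest promoter peak was 6743 bp over the 10 genes and 958 bp over all genes. These counts describe the list and were not tested, because the genes were chosen by name with results of these data known.

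H3K4me1 peaks were found in 3 of 3 libraries at fewer of the genes, though at a higher share than over all genes. At the promoter, 5 of 10 genes had one in each library (Spib, Elf1, Ikzf1, Ikzf3 and Runx1; 6.17% of all genes), and 6 of 10 had one in the gene body (Ets1, Elf1, Fli1, Ikzf1, Ikzf3 and Runx1; 6.41%). For outlying H3K4me1 peaks the count was 5 of 10 (Spib, Spi1, Ets1, Ikzf1 and Runx1; 20.6% of all genes). For H3K4me3 the counts were 7 of 10 in the gene body (18.3%) and 9 of 10 in the outlying class (60.7%). The 10 genes are long, with a median extent of 84.0 kb against 16.6 kb for all genes, and a longer gene has more room for a gene body peak; the part of length in these counts was not tested. The H3K4me1 counts also moved with replicate 3, the library with the fewest peaks: without it, 8 genes had a promoter peak and 8 an outlying peak in both remaining libraries.

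**Figure D1:**
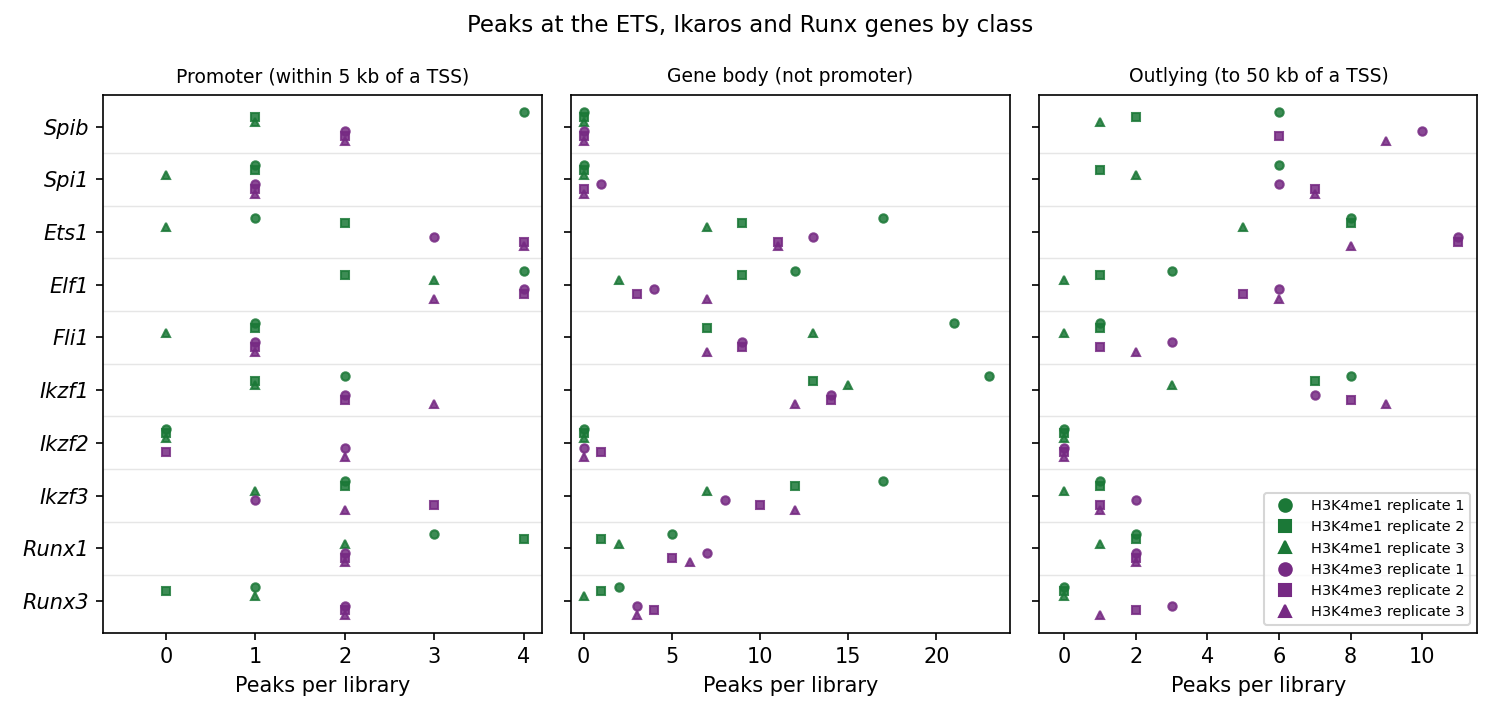
Number of peaks per library (x axis) at each of the 10 genes (rows), for promoter, gene body and outlying peaks; symbols are the 3 replicates, green is H3K4me1 and purple is H3K4me3. Gene body H3K4me1 peaks run up to 23 at Ikzf1 in replicate 1, and Ikzf2 stays at 0 for H3K4me1 in every class.

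Coverage of the start sites themselves was counted for each mark. A TSS was covered by an H3K4me3 peak in 3 of 3 libraries at 5 of 10 genes (Spib, Elf1, Fli1, Ikzf3 and Runx1; 38.4% of all genes). No TSS of the 10 genes was covered by an H3K4me1 peak in any library, and 2.36% of all genes had such coverage. With 10 genes, neither count is far from the share over all genes, so neither is read as particular to them. The H3K4me1 peaks were also narrower, with median widths of 270, 264 and 253 bp against 857, 821 and 821 bp for H3K4me3. The share of each locus under H3K4me3 was above that under H3K4me1 in all 10 genes, with no overlap between the 3 libraries of one mark and the 3 of the other. In the exact permutation test over the 20 assignments of 6 libraries, every gene gave p = 0.1, two-sided, which is the smallest p this design allows, so none could pass 0.05. The H3K4me3 lists are broad calls and the H3K4me1 lists narrow ones, so mark and calling mode cannot be told apart in this contrast. Nothing in the labels says that the libraries came from separate animals, and the p-values measure only the spread between these libraries.

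**Figure D2:**
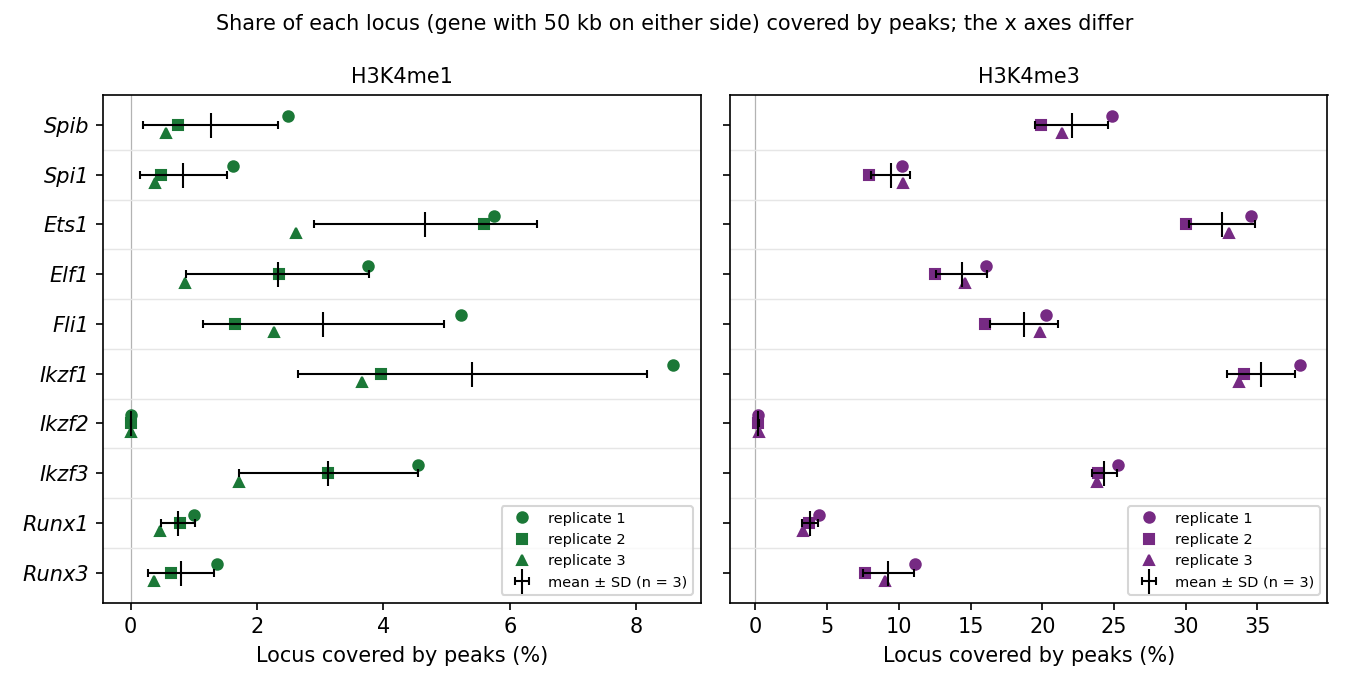
Share of each locus covered by peaks, in percent, for H3K4me1 (left) and H3K4me3 (right, on a wider axis); symbols are the 3 libraries and the black bars are mean ± SD. Ikzf1 and Ets1 have the highest means for both marks, and Ikzf2 lies at or near 0.

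Among the ETS genes, Spib and Spi1 encode the closest pair of factors, and H3K4me3 was wider at Spib. At Spib, on the minus strand at chr7:44525993-44532071, the widest promoter peak measured 9982, 9245 and 9901 bp in replicates 1, 2 and 3. It covered the TSS in each library, reaching from 3456, 2714 and 3217 bp upstream to 6525, 6530 and 6683 bp downstream, and so spanned the whole gene, which is 6.08 kb long. Its mean width ranked 39th of the 21864 genes. A TSS of the neighbour Mybpc2 lay within 5 kb of the same peak. The Spib start itself is CpG-poor, with 7 CpG in the 1001 bp around the TSS. At Spi1, on the plus strand at chr2:91096096-91115756, the promoter peak measured 2629, 1911 and 2167 bp. It began 70, 223 and 150 bp downstream of the TSS and did not cover it in any library.

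H3K4me3 peaks covered 24.9%, 19.9% and 21.3% of the Spib locus, against 10.2%, 7.89% and 10.3% of the Spi1 locus. Every library was thus higher at Spib, by 12.6 ± 1.87 percentage points (mean ± SD, n = 3; exact sign-flip test, p = 0.25, the smallest possible with 3 libraries). For H3K4me1 the shares were 2.49%, 0.751% and 0.552% at Spib and 1.63%, 0.483% and 0.388% at Spi1. Spib was again higher in 3 of 3 libraries, but the difference of 0.433 ± 0.379 percentage points was close to its spread and changed sign to -0.0353 when only peaks with −log10 q of at least 5 were counted.

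Promoter H3K4me1 peaks numbered 4, 1 and 1 at Spib and 1, 1 and 0 at Spi1, and neither gene had an H3K4me1 peak in the rest of the gene body. Outlying H3K4me1 peaks of both genes lay in part at the promoters of neighbours. At Spib, 4 of 6, 1 of 2 and 1 of 1 outlying H3K4me1 peaks were within 5 kb of a TSS of Napsa, Mybpc2 or Pold1. Of the outlying H3K4me3 peaks of Spib, 8 of 10, 6 of 6 and 7 of 9 lay at promoters of other genes, Nr1h2, Emc10 and Fam71e1 among them. At Spi1, 3 of 6, 0 of 1 and 2 of 2 outlying H3K4me1 peaks lay at the promoters of Psmc3 or Slc39a13. Peaks in these intervals therefore cannot be assigned to Spib or Spi1 by distance alone. Only 1 H3K4me1 region of the Spib locus was found in all 3 libraries, 39.8 kb upstream of its TSS at chr7:44571581-44572138, with fold enrichments of 4.21, 5.25 and 5.85, and this region lay within 5 kb of a TSS of Napsa. The Spi1 locus had no region shared by all 3 libraries.

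Ets1 and Fli1 are neighbours on chromosome 9 and Elf1 lies on chromosome 14. These genes carried the marks through their introns. Ets1, on the plus strand at chr9:32696022-32757820, had 26, 19 and 12 H3K4me1 peaks, of which 17, 9 and 7 were in the gene body, and 27, 26 and 23 H3K4me3 peaks. H3K4me1 peaks covered 5.75%, 5.6% and 2.62% of its locus, and the mean of 4.66% ranked 13th of all genes. H3K4me3 peaks covered 34.6%, 30.05% and 33.0%, and that mean ranked 36th. Replicate 3 was the low library for H3K4me1, whereas the H3K4me3 libraries lay close together.

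At the Ets1 start, coverage varied between libraries. The widest promoter H3K4me3 peak measured 3258, 1418 and 4368 bp. All 4 annotated starts, which lie within 1 kb of each other, were covered in replicates 1 and 3, and none was covered in replicate 2, where the nearest peak ended 200 bp upstream. Promoter H3K4me1 peaks numbered 1, 2 and 0. Ets1 thus had a wide share of its locus marked without a promoter peak of at least 5 kb. The mean of its widest promoter peak, 3015 bp, was still above that of 90.9% of all genes.

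Fli1, on the minus strand at chr9:32422204-32541595, had 21, 7 and 13 H3K4me1 peaks in its gene body, 1, 1 and 0 at the promoter and 1, 1 and 0 outlying. Its H3K4me3 promoter peak measured 7605, 7377 and 7827 bp and was the only one within 5 kb of the TSS in each library. That peak covered the TSS, with ends from 3352 to 3442 bp upstream and from 3934 to 4452 bp downstream. H3K4me1 covered 5.22%, 1.66% and 2.26% of the Fli1 locus and H3K4me3 20.3%, 16.0% and 19.8%. Ets1 exceeded Fli1 in 3 of 3 libraries for both marks, by 13.8 ± 0.599 percentage points in H3K4me3 and by 1.61 ± 2.02 in H3K4me1 (n = 3; exact sign-flip p = 0.25 for each). Without H3K4me1 replicate 2 the latter was 0.446. The H3K4me3 difference became -2.12 when only peaks with −log10 q of at least 5 were counted, and the H3K4me1 difference was smaller than its SD. Fli1 was also the only gene of the 10 whose contrast between the marks changed sign, to -0.747 percentage points when each list was limited to its 10000 best peaks and to -1.37 when peaks per 100 kb were counted.

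Elf1, on the plus strand at chr14:79481194-79582494, has an upstream start and a pair of downstream starts, and the mark separated them. The upstream start lies in CpG-rich sequence, with 138 CpG in 1001 bp and 75.1% G or C. It was not covered in any library, and the nearest H3K4me3 peak began 494, 438 and 487 bp downstream of it and was 1492, 1548 and 1272 bp wide. The downstream starts, with 15 CpG in 1001 bp, were covered in 3 of 3 libraries by peaks of 8509, 8683 and 9734 bp. A TSS of Wbp4 lay within 5 kb of the peaks beside the upstream start, but not of those over the downstream starts. The latter reached only 432, 606 and 460 bp upstream but 8076, 8076 and 9273 bp downstream of the first downstream start. Their mean width ranked 57th of all genes. The wide mark thus lay over the CpG-poor start shown above, and narrower peaks lay beside the CpG-rich one.

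Elf1 H3K4me1 peaks numbered 4, 2 and 3 at the promoter and 12, 9 and 2 in the gene body. All H3K4me1 peaks of the locus, outlying ones included, covered 3.76%, 2.35% and 0.862% of it, and H3K4me3 covered 16.0%, 12.5% and 14.6%. Ets1 exceeded Elf1 in 3 of 3 libraries for both marks, by 2.33 ± 0.798 percentage points in H3K4me1 and by 18.2 ± 0.537 in H3K4me3 (n = 3; exact sign-flip p = 0.25 for each). With the 10000 best peaks of each library the H3K4me3 difference was -0.14. An H3K4me1 region 4.19 kb upstream of the downstream starts, at chr14:79511272-79511700 in an intron, was found in all 3 libraries with fold enrichments of 4.28, 12 and 6.15. The value in replicate 2 was the highest fold enrichment of any H3K4me1 peak shared by all 3 libraries at the 10 genes.

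**Figure D3:**
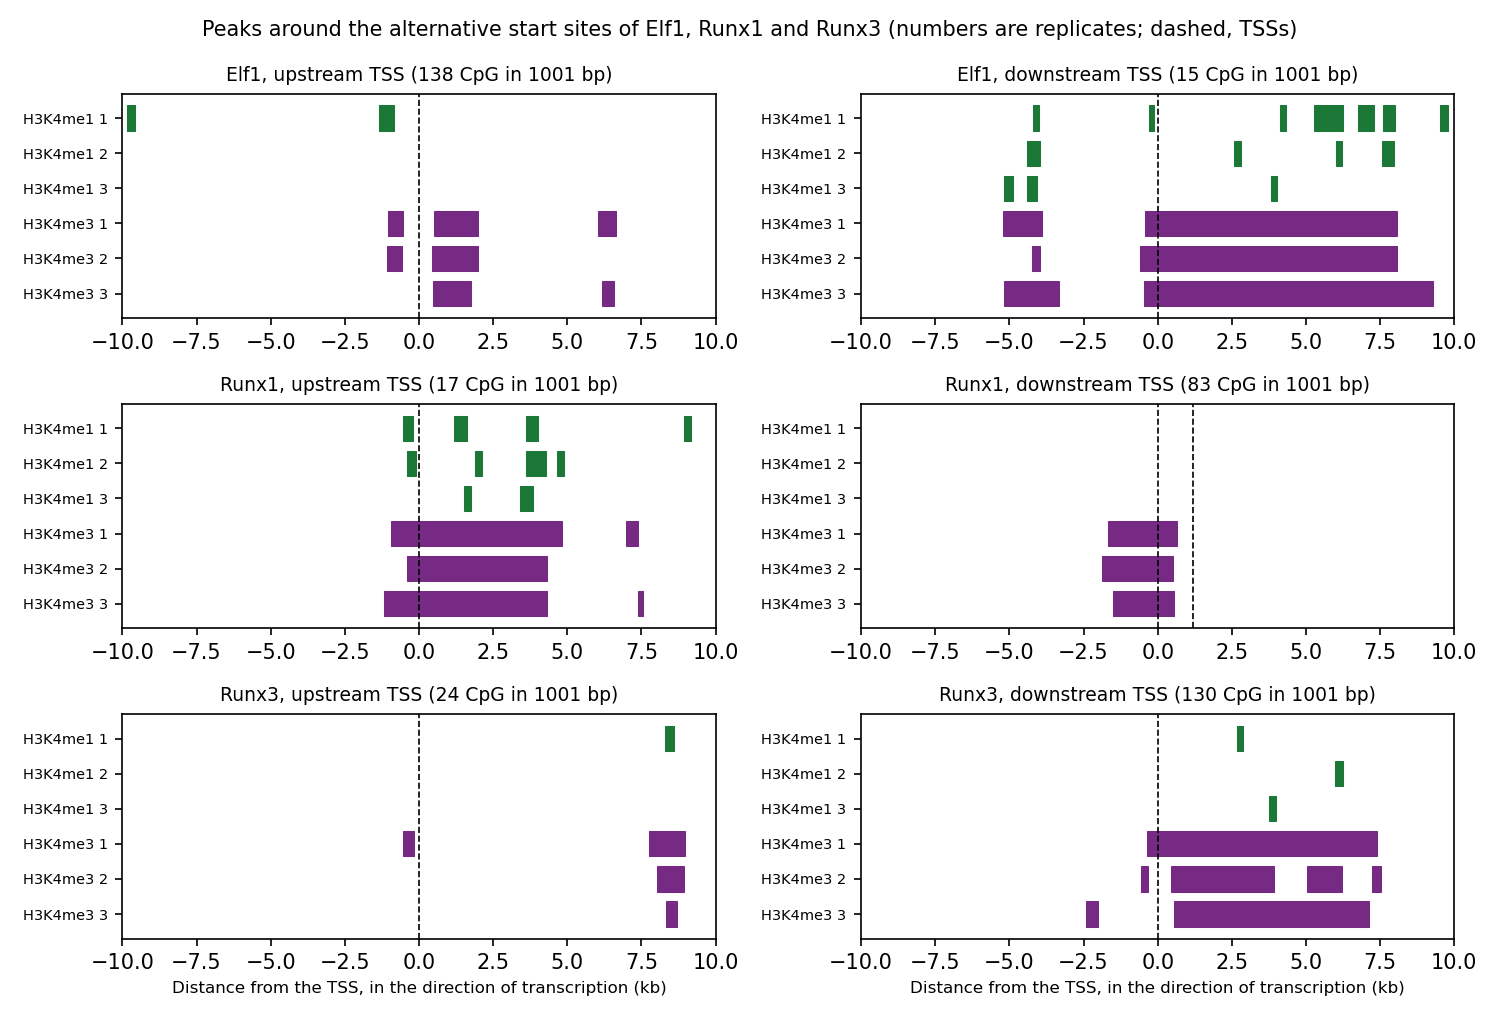
Peaks within 10 kb of the alternative start sites of Elf1, Runx1 and Runx3, as distance in kb from the start in the direction of transcription; rows are the 6 libraries, green is H3K4me1, purple is H3K4me3, and dashed lines are start sites. H3K4me3 peaks lie over the downstream starts of Elf1, over the distal and proximal starts of Runx1 but not its remaining start, and beside or over the downstream start of Runx3.

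Ikzf1 and Ikzf2 had the largest H3K4me3 difference of the 6 pairs in share of the locus covered. Spib and Spi1 differed more over the gene body alone (88.3 against 48.8 percentage points), with −log10 q of at least 5 (13.6 against 11.7) and with the 10000 best peaks (12.9 against 7.21). Ikzf1, on the plus strand at chr11:11685925-11772926, had 33, 21 and 19 H3K4me1 peaks, of which 23, 13 and 15 lay in the gene body, 2, 1 and 1 at the promoter and 8, 7 and 3 outlying. H3K4me3 peaks numbered 23, 24 and 24. H3K4me1 covered 8.59%, 3.96% and 3.66% of the locus, and the mean of 5.40% was the 6th highest of all genes. H3K4me3 covered 38.0%, 34.1% and 33.7%, a mean of 35.3% that ranked 15th. Replicate 1 was the highest library for both marks, by a wider margin in H3K4me1. No outlying peak of Ikzf1 lay within 5 kb of a TSS of another protein-coding gene.

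The widest H3K4me3 promoter peak of Ikzf1 measured 11013, 10729 and 11269 bp, a width that ranked 24th. It began 479, 604 and 507 bp downstream of the first start and extended to 11491, 11332 and 11775 bp into the gene. Of the 4 annotated starts, 1 was covered in replicates 1 and 3, and in replicate 2 the peak began 84 bp from the nearest start. The first start had 144 CpG in 1001 bp and 77.1% G or C, the highest values of the starts examined. As at Elf1, the start in GC-rich sequence lay just outside the peak.

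Coverage of the most upstream start varied with base composition across the genome. Among the most upstream starts of all genes, those with at least 70% G or C were covered by H3K4me3 in 3 of 3 libraries in 8.17% of 1089 cases, against 50.5% of 5522 starts with 60% to 70%. The share was 49.8% of 8458 starts with 50% to 60% and 9.64% of 6782 starts with less than 50%. Genes with at least 70% and with 60% to 70% had an H3K4me3 promoter peak in 3 of 3 libraries at nearly the same rate, 78.0% and 80.1%. The rate was 66.4% at 50% to 60% and 20.5% below 50%. Such a peak could lie within 5 kb of any start of the gene, so these rates do not place it beside the most upstream start. The upstream Elf1 start and the first Ikzf1 start were in the group of at least 70%. The downstream Runx3 start also had over 70% G or C but is not the most upstream start of its gene, so it was not counted there. The part of base composition in the position of the mark was not tested.

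Ikzf2, on the minus strand at chr1:69531214-69687245, stood at the other end. It had no H3K4me1 peak in any class or library, and 15200 of the 21864 genes had more H3K4me1 coverage. H3K4me3 peaks numbered 2, 1 and 2 and covered 0.211%, 0.153% and 0.244% of the locus. In replicates 1 and 3 a pair of small peaks flanked the upstream start. The downstream ones were 286 and 307 bp wide, the upstream ones 253 and 318 bp, and fold enrichments ran from 3.76 to 4.70. In replicate 2 no promoter peak was called, and the 1 peak of that library lay in an intron 69.6 kb from the nearest start.

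The upstream Ikzf2 start is not CpG-poor, as the sequence above shows: it had 98 CpG in 1001 bp and 60.9% G or C. Of the 1893 most upstream starts with at least as many CpG, 25.4% were covered by H3K4me3 in 3 of 3 libraries and 47.2% in none. By CpG count, the group without coverage, to which Ikzf2 belonged, was thus larger than the group covered in 3 of 3. By G or C content, starts like that of Ikzf2 were mostly covered. Of the 5522 most upstream starts with 60% to 70% G or C, 73.3% were covered by H3K4me3 in some or all libraries. In 3 of 3 libraries 50.5% were covered, and 80.1% of these genes had an H3K4me3 promoter peak. Ikzf2 was in the minority on each of these measures except coverage in 3 of 3, where the split was near even. The difference from Ikzf1 was 35.1 ± 2.36 percentage points in H3K4me3 and 5.40 ± 2.76 in H3K4me1, with Ikzf1 higher in 3 of 3 libraries for each (n = 3; exact sign-flip p = 0.25, the smallest possible).

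Ikzf3, on the minus strand at chr11:98464902-98545800, carried many peaks of both marks. H3K4me1 peaks numbered 20, 15 and 8, of which 17, 12 and 7 lay in the gene body, and H3K4me3 peaks 11, 14 and 15. The widest H3K4me3 promoter peak measured 9853, 6330 and 6453 bp and covered the TSS in each library. Its downstream end was stable, at 3568, 3564 and 3564 bp, whereas the upstream end lay at 6284, 2765 and 2888 bp. A TSS of Zpbp2 lay within 5 kb of each of these peaks. Replicate 1 thus had 1 long peak where replicates 2 and 3 had separate ones. The start had 77 CpG in 1001 bp and 58.1% G or C, so at Ikzf3 a CpG-rich start was covered.

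H3K4me1 covered 4.55%, 3.13% and 1.72% of the Ikzf3 locus and H3K4me3 25.3%, 23.9% and 23.8%. Ikzf1 exceeded Ikzf3 by 2.27 ± 1.63 percentage points in H3K4me1 and by 10.9 ± 1.51 in H3K4me3, in 3 of 3 libraries each (n = 3; exact sign-flip p = 0.25). The H3K4me3 difference turned to -3.43 with peaks of −log10 q of at least 5 and to -3.24 with the 10000 best peaks, so the order of these genes changed when only stronger peaks were counted. Of the promoter H3K4me1 peaks of Ikzf3, 1 of 2, 2 of 2 and 1 of 1 were also within 5 kb of a TSS of the neighbour Zpbp2. Outlying peaks lay in part at neighbours as well: each outlying H3K4me1 peak was at the promoter of Zpbp2, and 1 outlying H3K4me3 peak in each library was at that of Ormdl3.

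**Figure D4:**
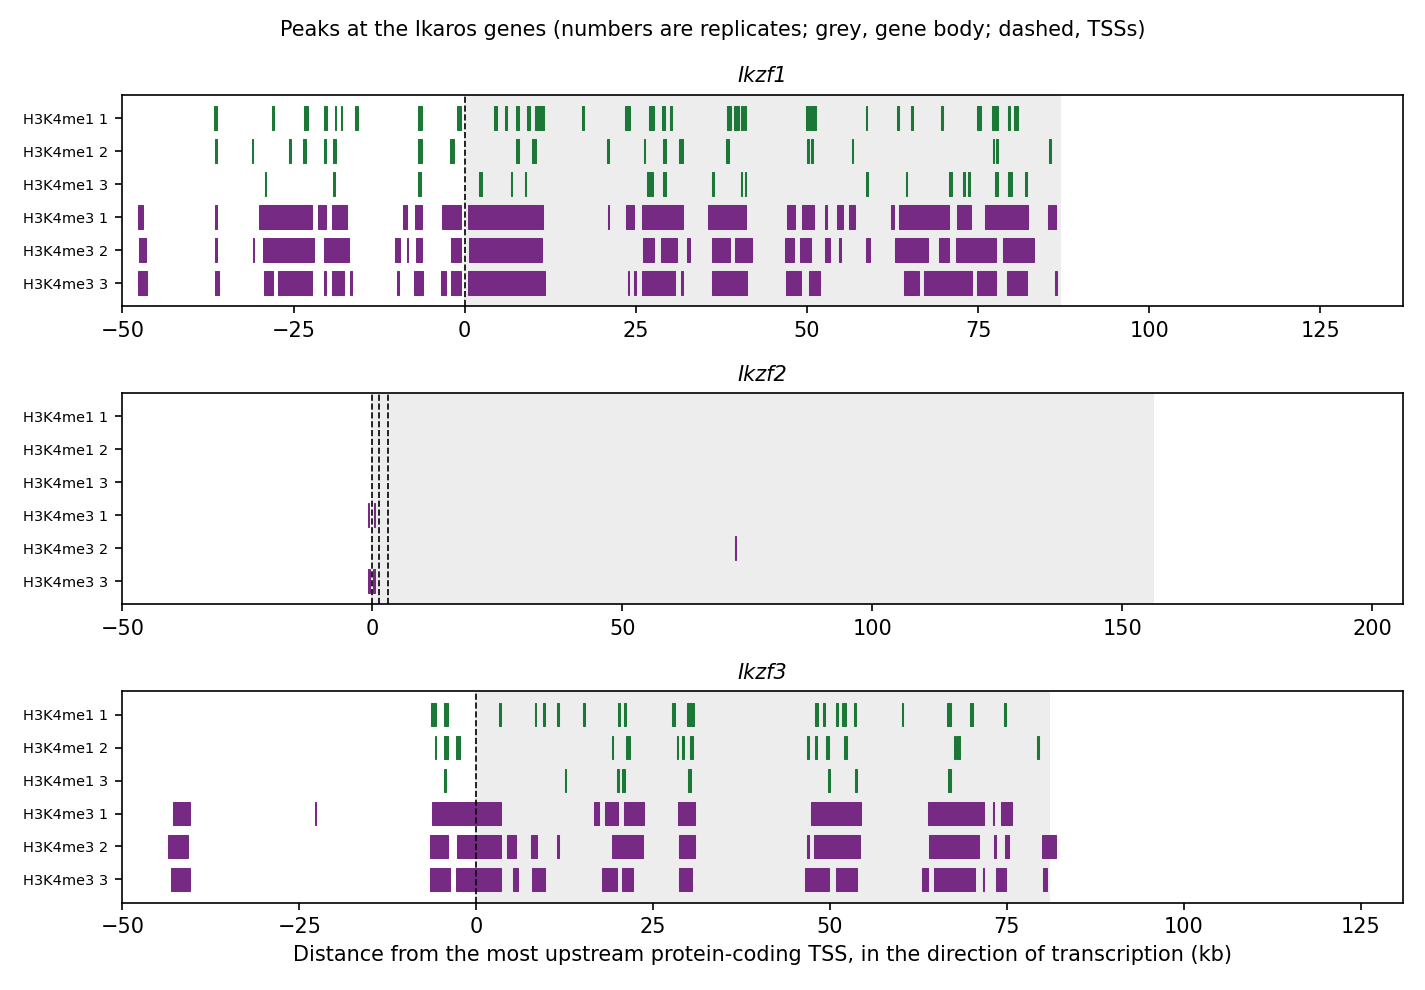
Peaks along Ikzf1, Ikzf2 and Ikzf3 as distance in kb from the most upstream start in the direction of transcription; rows are the 6 libraries, green is H3K4me1, purple is H3K4me3, grey marks the gene body and dashed lines the start sites. Both marks run through Ikzf1 and Ikzf3, and the Ikzf2 rows hold 5 small H3K4me3 peaks in all.

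Runx1, on the minus strand at chr16:92601466-92826149, carried H3K4me3 at both of its known promoters. At the distal start, which has 17 CpG in 1001 bp, the peak measured 5749, 4709 and 5495 bp and covered the start in 3 of 3 libraries. At the proximal start, with 83 CpG, it measured 2305, 2408 and 2079 bp and also covered the start in 3 of 3. The third annotated start, downstream of the proximal one, was not covered in any library, and the nearest peak ended 560, 680 and 643 bp upstream of it. The CpG-poor distal start therefore had the wider mark, as the downstream start of Elf1 did. Runx3 went the other way, with its widest promoter peaks at or near its CpG-rich downstream start.

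H3K4me1 separated the Runx1 promoters further. Promoter H3K4me1 peaks numbered 3, 4 and 2, and all lay at the distal start: the H3K4me1 peak nearest to the proximal start was 46.8 kb away in replicate 1 and 27.5 kb away in replicate 3, and replicate 2 had none within the distance examined. At the distal start the nearest H3K4me1 peak lay 217, 106 and 1513 bp from the TSS without covering it. An intronic region 3.84 kb downstream of the distal start at chr16:92821877-92822746, was found in all 3 libraries with fold enrichments of 5.61, 9.0 and 8.04. The Runx1 locus is the longest of the 10, at 324.7 kb, and its covered shares were 1.01%, 0.784% and 0.463% for H3K4me1 and 4.43%, 3.71% and 3.35% for H3K4me3.

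Runx3, on the plus strand at chr4:135120652-135177990, was marked around its downstream start. That start has 130 CpG in 1001 bp and 74.0% G or C. A peak of 7742 bp covered it in replicate 1, and in replicates 2 and 3 it was not covered, with the nearest peak edges 344 and 535 bp away. The widest promoter peaks of those libraries were 3486 and 6592 bp. The upstream start, with 24 CpG, was not covered in any library, and only replicate 1 had a peak beside it, 365 bp wide and 157 bp away. The strongest H3K4me3 peak of Runx3 lay in neither promoter but in the gene body, 8.36 to 8.52 kb downstream of the upstream start, with fold enrichments of 6.90, 6.01 and 6.31.

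H3K4me1 peaks were sparse at Runx3, at 3, 1 and 1 in the 3 classes together. All H3K4me1 peaks of the locus covered 1.37%, 0.634% and 0.375% of it, and H3K4me3 covered 11.1%, 7.62% and 9.04%. These H3K4me1 shares include peaks in none of the 3 classes, such as the region 73.7 kb downstream described below. The H3K4me3 share was 5.44 ± 1.42 percentage points below that of Runx3 at Runx1, with Runx1 lower in 3 of 3 libraries (n = 3; exact sign-flip p = 0.25). This difference was -1.09 ± 0.905 with −log10 q of at least 5 and -0.448 ± 0.831 with the 10000 best peaks, where it was smaller than its SD. H3K4me3 peaks numbered 11, 9 and 10 at Runx1 and 8, 8 and 6 at Runx3, so Runx1 had more in each library. The shares are taken over loci of 324.7 kb at Runx1 and 157.3 kb at Runx3, and the part of length was not tested. In H3K4me1 the pair could not be separated: Runx1 minus Runx3 was -0.0427 ± 0.282 percentage points, with Runx1 higher in 2 of 3 libraries (exact sign-flip p = 1). The sign of this small difference changed to 0.119 without H3K4me1 replicate 1. A single H3K4me1 region was found in all 3 libraries, 73.7 kb downstream of the downstream start at chr4:135225899-135226455, beyond the gene's end and too far from a TSS for the outlying class.

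H3K4me1 regions shared by all 3 libraries were rare at these genes, as in the whole lists. Merging overlapping H3K4me1 peaks of the 10 loci gave 238 regions, of which 18 were found in 3 of 3 libraries, or 7.56%, against 4.68% of all 39388 regions. Ets1 had 5 of them, Ikzf1 had 4, Elf1, Fli1 and Ikzf3 had 2 each, Spib, Runx1 and Runx3 had 1 each, and Spi1 and Ikzf2 had none. Of the 18, 11 were intronic, 7 were outside the gene and 0 touched an exon. H3K4me3 peaks of all 3 libraries overlapped 17 of them. The exception was a Fli1 intronic region 7.44 kb from the TSS, which overlapped H3K4me3 in 2 libraries. The same overlap was not counted for the 1845 H3K4me1 regions of all chromosomes found in 3 of 3 libraries. It is therefore not read as particular to these genes. For H3K4me3, 85 of 167 merged regions at the 10 loci, or 50.9%, were found in 3 of 3 libraries, against 41.6% of all 64451 regions.

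The marks lay together beyond these regions too. H3K4me1 peaks of the 10 genes overlapped an H3K4me3 peak of the same-numbered library in 80.8%, 77.5% and 92.5% of cases, and all H3K4me1 peaks did so in 74.6%, 70.3% and 75.2%. The share was higher at the 10 genes in each library, which is given as a description. In the gene body, 94 of 97, 49 of 52 and 46 of 46 H3K4me1 peaks were intronic.

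The shared H3K4me1 peaks with the highest fold enrichment at Ets1 and Fli1 are shown as sequence, because they were the strongest shared peaks in replicate 1 at 10.5-fold each. The windows are 151 bp around the summit in GRCm38, written 5′ to 3′ on the strand of the gene, with matches to the Ikaros core TGGGAA or its reverse complement in capitals.
Ets1, upstream of the gene, chr9:32667997-32668147, plus strand: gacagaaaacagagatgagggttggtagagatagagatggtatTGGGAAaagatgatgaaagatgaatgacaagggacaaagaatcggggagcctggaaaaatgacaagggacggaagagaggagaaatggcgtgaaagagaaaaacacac
Fli1, intron, chr9:32493077-32493227, minus strand: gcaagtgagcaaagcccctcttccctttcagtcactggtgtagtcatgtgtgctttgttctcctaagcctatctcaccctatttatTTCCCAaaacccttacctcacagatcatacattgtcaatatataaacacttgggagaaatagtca

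The Ets1 peak lies 27.9 kb upstream of the gene, with fold enrichments of 10.5, 6.75 and 5.85 and 14, 8 and 7 fragments at the summit. The Fli1 peak lies in an intron, 48.1 kb downstream of the TSS, with 10.5, 8.25 and 5.12 and 14, 10 and 6 fragments. These are counts of few fragments, and replicate 1 was the highest library at both. In the Ets1 window 38.4% of bases are repeat-masked and in the Fli1 window none. Among the 7 genes with a shared peak in 1 of the 3 classes, 4 windows (Ets1, Elf1, Fli1 and Ikzf3) held 1 match to TGGGAA each. None of the 7 windows held the longer ETS-type sequences CCGGAAG or GAGGAAG or the Runx core TGTGGT. The GGAA core of ETS motifs was not searched alone. Each TGGGAA match contains it, so these windows are not free of ETS core sequence. In the Ikzf3 window 74.8% of bases are repeat-masked.

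Over all H3K4me1 summit windows of the 10 genes, the share with a motif was near or below that of the whole lists. On either strand, TGGGAA was found in 12.6%, 14.6% and 11.9% of member windows and in 13.8%, 13.1% and 13.8% of all windows. TGTGGT was found in 9.93%, 13.5% and 13.4% against 13.3%, 13.4% and 13.2%. GAGGAAG, the type preferred by PU.1 and Spi-B, was found in 4.64%, 5.62% and 4.48% against 7.97%, 8.46% and 8.32%, and CCGGAAG in 0.662%, 1.12% and 0% against 0.845%, 0.855% and 0.864%. These letters mark sequence matches and not bound sites.

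The other genes of the families are given as counts, with no test against the 10 genes. Of 21 other ETS genes, 14 had an H3K4me3 promoter peak in 3 of 3 libraries (56.1% of all genes), and 0 had one of at least 5 kb in each (1.25% of all genes). Elf5, Spdef and Spic, an ETS gene close to Spi1 and Spib, had no H3K4me3 promoter peak in any library. Ehf, Elk4 and Etv3 had H3K4me1 promoter peaks in 3 of 3 libraries, and Etv6 had 15, 9 and 8 H3K4me1 peaks in its gene body. The widest H3K4me3 promoter peaks of Elk4, 6835, 3965 and 5904 bp, and of Etv3, 4568, 5678 and 4742 bp, came nearest to the 5 kb limit. The other Ikaros genes, Ikzf4 and Ikzf5, and Runx2 had no H3K4me1 promoter or gene body peak in 3 of 3 libraries, and Ikzf5 and Runx2 had an H3K4me3 promoter peak in each.

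Among the Runx partners, Cbfb, which encodes CBFβ, the shared partner of the Runx factors, had H3K4me1 promoter peaks in 3 of 3 libraries (1, 1 and 2). Its H3K4me3 promoter peaks were at most 1172, 900 and 907 bp wide. The corepressor gene Cbfa2t3 had the widest H3K4me3 promoter peak of the partner genes, at 13703, 9541 and 10372 bp, with H3K4me1 promoter peaks of 6, 3 and 4. Runx1t1, a paralog of Cbfa2t3, had an H3K4me3 promoter peak of 208 bp in replicate 3 alone and no H3K4me1 promoter peak.

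**Figure D5:**
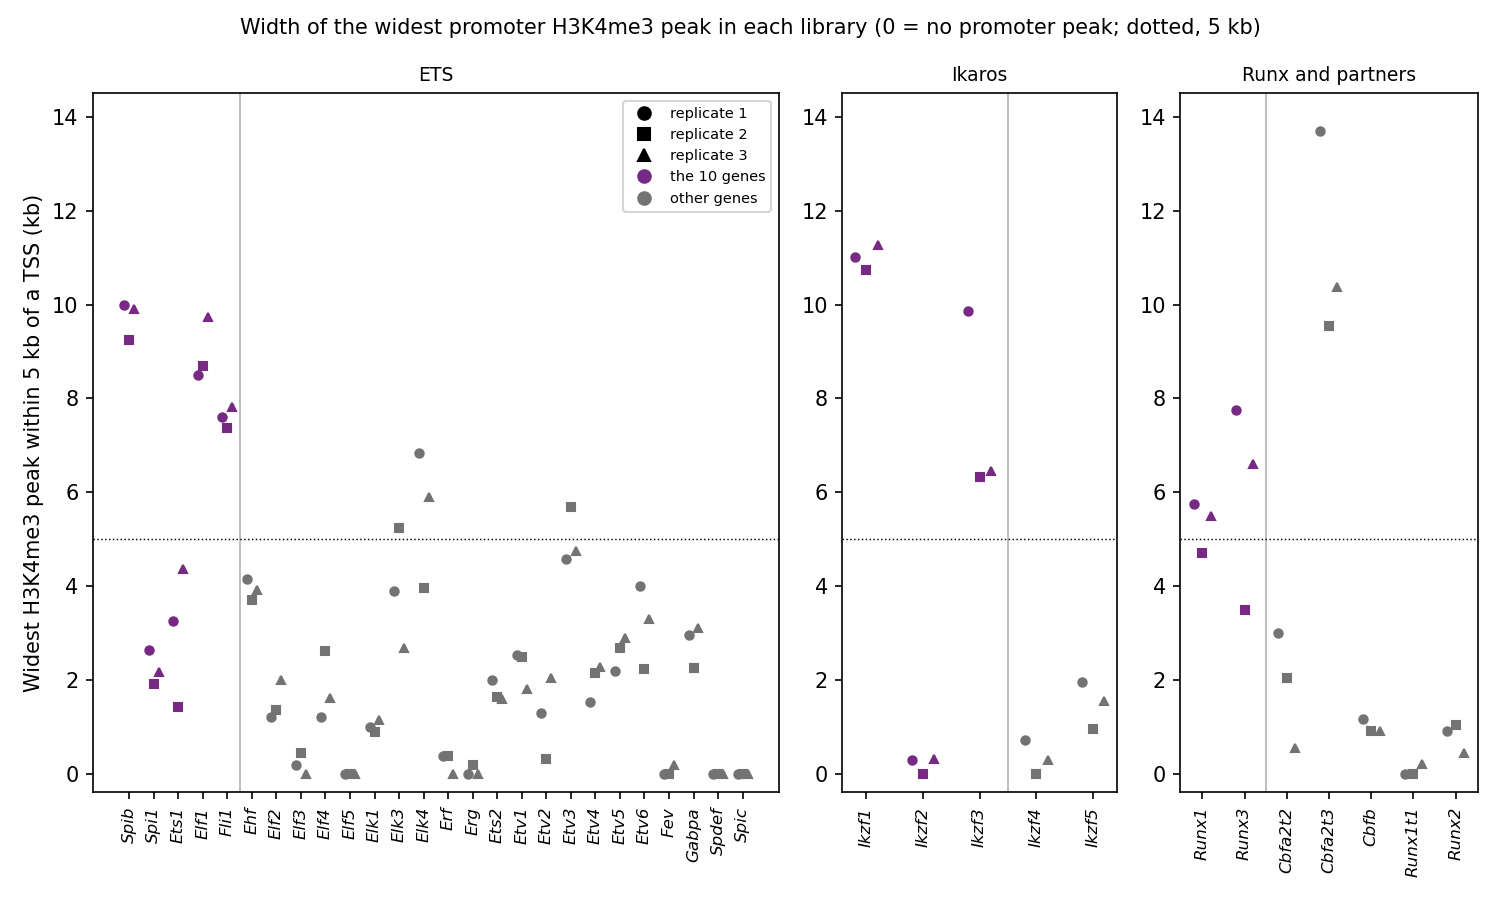
Width in kb of the widest H3K4me3 peak within 5 kb of a TSS in each library (symbols) for the 10 genes (purple) and the other genes of their families and Runx partners (grey); 0 means no promoter peak and the dotted line is 5 kb. Spib, Elf1, Fli1, Ikzf1 and Ikzf3 lie above the line in every library, as does Cbfa2t3 among the others.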

How the data were processed

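Mint-ChIP peak lists of 6 libraries, 3 for H3K4me1 and 3 for H3K4me3, were grouped by the mark in their titles. Peaks had been called by the authors one library at a time, and the layout is that of MACS2, narrow for H3K4me1 and broad for H3K4me3. The submitters' processing notes name mm10, BWA, Picard, HOMER and Genrich. The role of each tool, the caller's settings and its control are not given in the sources used here. In the deposited files, fold enrichment is a linear ratio of pileup to local background, averaged over the peak in broad lists. The −log10 p and −log10 q values of the same comparison are also deposited. The deposited score repeats the −log10 q value on a rounded scale and did not enter. The lowest −log10 q was 1.31 to 1.32 in the H3K4me1 lists and 1.02 to 1.14 in the H3K4me3 lists, so thresholds also differ between the marks.

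Coordinates were read as GRCm38 and checked: peaks past the end of a chromosome numbered 0, as did peaks on unlisted chromosomes. Genes were the 21864 protein-coding genes of the GENCODE M21 basic annotation with their 45078 TSSs, and sequences were read from the GRCm38 genome. A peak counted for a class if it shared any base with it. Summit fragments of H3K4me1 were solved from fold enrichment and −log10 p, which came out whole (to within 0.005 in −log10 p) for 100% of peaks. Percent of the locus covered was compared between marks by a two-sided exact permutation test and between family members within libraries by a two-sided exact sign-flip test over 6 pairs of genes and both marks. No p-value was adjusted, since none of these tests can pass 0.05. Motifs were searched on both strands of 151 bp summit windows. Replicate numbers are shared by the marks. The correlation of the deviations of same-numbered libraries from their mark's mean was 0.478, 0.218 and 0.203. These were all over 0.1, the level set for taking the numbers as pairs, and the block was tried as an alternative. For replicates 2 and 3 the numbers were not favoured over the crossed pairs, at 0.156 and 0.274. Peak handling was tested on simulated data. Python packages were numpy 2.4.6, pandas 2.3.3, scipy 1.17.1, pysam 0.24.0 and matplotlib 3.10.9.

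The members, the family and marker lists and the tests were chosen with earlier results of these data known. Named are all 10 members, the other family genes with an H3K4me1 promoter or gene body peak in 3 of 3 libraries or with no H3K4me3 promoter peak in any, and the H3K4me1 peak of highest fold enrichment shared by all 3 libraries at each member. Neighbouring genes, Ikzf4, Ikzf5, Runx2, Runx1t1 and further marker genes were named after their values were seen. Alternatives were a stricter q-value, the 10000 best peaks, other distances, TSS sets and overlaps, leaving out each library, and presence in 2 of 3 libraries.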

Additional observations from a re-analysis of the deposited data

How the results depend on the processing

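Of 259 values under alternative settings, 48 counts stayed within 1.5 times and 17 did not, and of the contrasts 106 between marks and 77 within families kept their sign, 9 changed sign and 2 fell to 0. No contrast can pass 0.05 in this design, and keeping the sign does not mean keeping the size: with the 10000 best peaks the contrast between marks fell to 3.01 percentage points at Ets1 and 3.29 at Ikzf1. The count of members with an H3K4me3 promoter peak in 3 of 3 libraries was 9, and 5 when a peak had to cover a TSS, an alternative chosen after seeing the data. For H3K4me1 promoter peaks it was 5, and 0 with −log10 q of at least 5, 3 with the 10000 best peaks, 0 within 1 kb, 9 in at least 2 of 3 libraries, and 5 to 8 without single libraries. Gene body counts fell with −log10 q of at least 5 from 7 to 4 for H3K4me3, which had 1 with the 10000 best peaks, and from 6 to 2 for H3K4me1. Outlying H3K4me3 counts fell from 9 to 3 under either setting. Outlying H3K4me1 counts were 5, and 2 with −log10 q of at least 5, 3 with the 10000 best peaks, 8 in at least 2 of 3 libraries, 9 to 100 kb, 3 without peaks at other promoters, and 5 to 8 without single libraries. Fewer or more peaks, libraries or bases enter each of these counts by construction.

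The contrast between marks changed sign at Fli1, to -0.747 percentage points with the 10000 best peaks and to -1.37 peaks per 100 kb, and was 0 at Ikzf2 with −log10 q of at least 5 and with the 10000 best peaks. Family contrasts that changed sign with −log10 q of at least 5 were Spib minus Spi1 in H3K4me1 (-0.0353), Ets1 minus Fli1 in H3K4me3 (-2.12) and Ikzf1 minus Ikzf3 in H3K4me3 (-3.43). With the 10000 best peaks they were Ets1 minus Elf1 (-0.14) and Ikzf1 minus Ikzf3 (-3.24) in H3K4me3. Runx1 minus Runx3 in H3K4me1 was 0.0122 over the gene body alone and 0.119 without H3K4me1 replicate 1. The cause of these changes of sign was not tested. With the replicate block, in which same-numbered libraries are paired, the contrast between marks at Ikzf1 was 29.9 percentage points (exact sign-flip p = 0.25), which no call could rest on, since the smallest possible p is 0.25. The median H3K4me1 summit of 6 fragments limits what could be called, and total reads are unknown here.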
